A study of Mus musculus with 2 samples.

Results

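The Igf2-H19 and Kcnq1 imprinted domain is a run of genes on distal mouse chromosome 7 whose expression depends on the parent an allele came from. It was followed here through 10 genes: H19, Igf2, Ins2, Ascl2, Cd81, Kcnq1, Kcnq1ot1, Cdkn1c, Slc22a18 and Phlda2. Every 50 kb window of the deposited table that overlaps the GRCm38 RefSeq span of at least 1 of these genes was taken, which gave 13 of 43941 windows. A further 7 windows lie between them, so the interval is 1000 kb long (142550001 to 143550000 on chromosome 7, mm10), and 10 windows on each side (500 kb) served as context. The windows follow from gene positions; the genes themselves were chosen with earlier results of these data known.

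The study carried out Promoter Capture Hi-C, which crosslinks chromatin, cuts it with HindIII, religates it inside the nucleus and enriches ligation products that hold a promoter, here with baits for 22225 mouse gene promoters. The cells were F121-6, a female hybrid mouse embryonic stem (ES) cell line with 1 chromosome set of the 129 strain and 1 of Mus castaneus (Cas), grown on mitomycin-inactivated mouse embryonic fibroblasts with LIF. There were 2 samples, replicates 1 and 2 of the same untreated group, and the table gives for both together 1 interaction count and 1 distance per window and allele. No spread between replicates can therefore be given, and the intervals below cover counting error only. The labels name the cross as 129 with Cas and do not say which strain was the mother, and 1 line of 1 cross was measured, so an effect of the parent and an effect of the strain cannot be told apart. No expression or methylation value was used, so neither the cell type nor the imprinted state of the alleles was checked.

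In an imprinted domain, an imprinting control region carries DNA methylation from only one parent's germ line. Upstream of H19, the unmethylated maternal control region binds the insulator protein CTCF and keeps shared enhancers from Igf2, while the methylated paternal copy lets Igf2 use them. In the neighbouring Kcnq1 cluster, the control region is the promoter of Kcnq1ot1, a long antisense RNA made from the paternal allele that is linked to silencing of nearby genes on that allele. Textbook maternally expressed genes of the domain are H19, Ascl2, Cd81, Kcnq1, Cdkn1c, Slc22a18 and Phlda2, some of them mainly in the placenta, and the paternally expressed ones are Igf2, Ins2 and Kcnq1ot1.

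Promoters are what the assay enriches, so 4 upstream sequences of the domain are shown, of 250 bases each and 5′ to 3′ (RefSeq, GRCm38.p6). They come from 2 paternally expressed genes, Kcnq1ot1 and Igf2, and from 2 maternally expressed ones, Ascl2 and Phlda2. Capitals mark CCAAT or its reverse complement ATTGG.
Kcnq1ot1 (chr7:143296548-143296797, minus strand): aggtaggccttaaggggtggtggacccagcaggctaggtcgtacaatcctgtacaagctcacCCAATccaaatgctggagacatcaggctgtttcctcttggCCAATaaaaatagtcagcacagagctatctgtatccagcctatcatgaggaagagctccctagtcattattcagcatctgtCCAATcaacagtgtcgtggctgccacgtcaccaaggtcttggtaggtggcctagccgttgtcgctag
Igf2 (chr7:142657497-142657746, minus strand): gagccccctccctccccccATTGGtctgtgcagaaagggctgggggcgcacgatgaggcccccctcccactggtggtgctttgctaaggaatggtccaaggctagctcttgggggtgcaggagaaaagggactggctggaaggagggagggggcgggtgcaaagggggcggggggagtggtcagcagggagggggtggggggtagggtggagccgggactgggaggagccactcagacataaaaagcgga
Ascl2 (chr7:142969265-142969514, minus strand): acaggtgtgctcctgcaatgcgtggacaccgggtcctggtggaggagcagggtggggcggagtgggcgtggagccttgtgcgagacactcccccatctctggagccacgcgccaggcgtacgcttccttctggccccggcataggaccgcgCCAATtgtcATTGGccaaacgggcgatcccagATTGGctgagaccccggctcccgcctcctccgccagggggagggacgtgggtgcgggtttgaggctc
Phlda2 (chr7:143502525-143502774, minus strand): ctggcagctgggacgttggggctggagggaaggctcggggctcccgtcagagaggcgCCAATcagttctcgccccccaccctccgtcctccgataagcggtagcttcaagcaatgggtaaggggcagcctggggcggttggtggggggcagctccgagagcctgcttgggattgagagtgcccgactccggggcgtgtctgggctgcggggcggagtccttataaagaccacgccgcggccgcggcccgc

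The promoter table held 9 entries for 6 of the 10 genes (4 for Igf2), and none for H19, Ins2, Kcnq1 and Cdkn1c. Counted on both strands, CCAAT occurred 3 times upstream of Kcnq1ot1, 3 times upstream of Ascl2, once upstream of Phlda2 and in 1 of the 4 Igf2 entries. It occurred 0 times upstream of Cd81 and Slc22a18 and in the other Igf2 entries. The 4 sequences shown are those of the 9 entries that hold it. Of 32851 upstream stretches of the same length, 33.8% held CCAAT at least once and 2.79% held it 3 or more times. The HindIII site AAGCTT, where the assay cuts, was in none of the 9 entries, against 6.22% of all stretches, and no motif searched overlapped another. The number of CG dinucleotides, the substrate of DNA methylation, was 5 upstream of Kcnq1ot1, 19 upstream of Ascl2 and 21 upstream of Phlda2. It was 16 upstream of Cd81, 0 upstream of Slc22a18 and 1, 10, 22 and 6 in the 4 Igf2 entries, the last being the one shown. The median over all stretches was 6. A match of letters describes these stretches and says nothing of binding.

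The windows of H19 and Igf2 also hold microRNA genes, Mir675 inside H19 and Mir483 inside Igf2. Their mature 5p products (RefSeq, GRCm38.p6) are shown because each lies in the counted window of its host gene. Capitals mark the seed, bases 2 to 8.
mmu-miR-675-5p (chr7:142577112-142577133, minus strand): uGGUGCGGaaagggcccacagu
mmu-miR-483-5p (chr7:142654968-142654989, minus strand): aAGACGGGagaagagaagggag

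No window of the imprinted genes passed the test for an allelic imbalance of contacts beyond the spread between windows of the genome. The 13 windows together had 19569 interactions from 129 and 14086 from Cas, a 129 share of 58.1% (exact Clopper-Pearson 95% interval 57.6 to 58.7%). The 129 share was 57.5% on chromosome 7 and 57.6% over all autosomes, so the larger count on 129 was shared by the whole table. A beta-binomial test of each window against the autosomal share, which allows for a standard deviation of 6.35 percentage points between windows, called 0 of the 13 windows at a Benjamini-Hochberg adjusted p of 0.05 over 43762 windows. Of all windows it called 0.944%, 0.727% above the autosomal 129 share and 0.217% below it. At an unadjusted p under 0.05 it also had 0 of 13 (all windows, 5.51%), and the smallest unadjusted p was 0.225. At these depths a window was called only if its 129 share lay below about 35% or above about 78%, with bounds of 35.2 and 78.1% in the window that allows the smallest difference, a 129 to Cas ratio 2.63-fold above or 2.50-fold below the autosomal one. Smaller imbalances could not be told from the spread between windows.

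**Figure D1:**
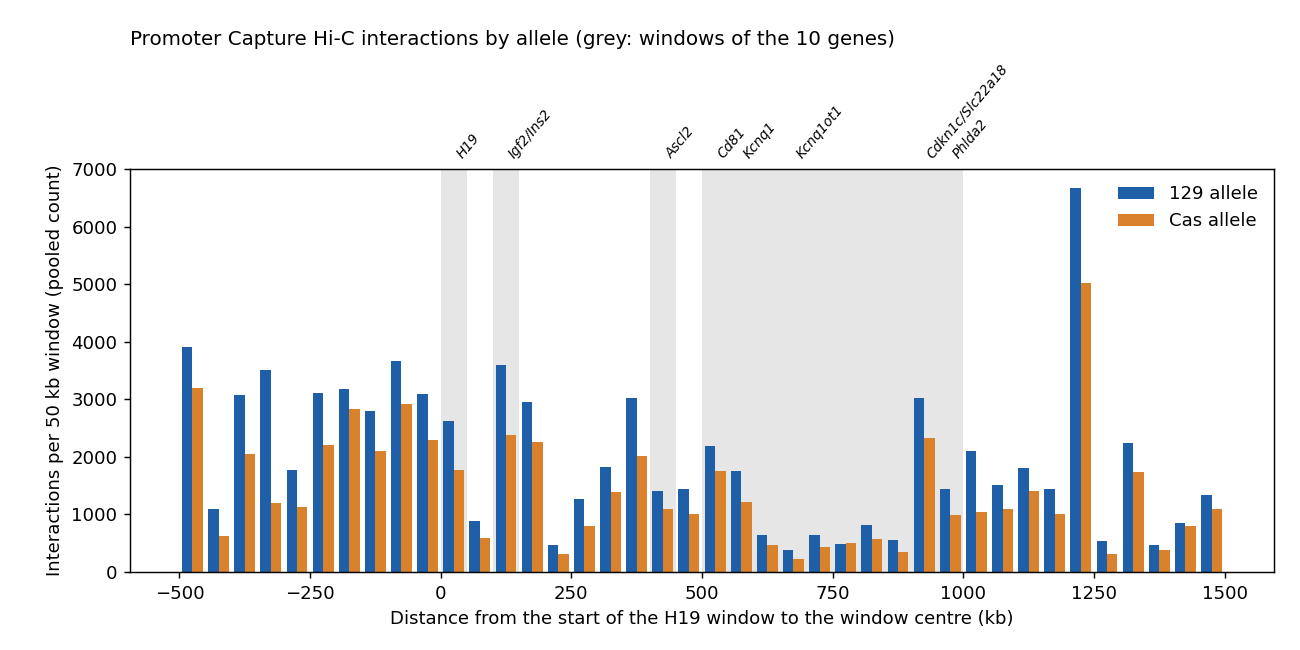
Interactions per 50 kb window on the 129 allele (blue, left bar) and the Cas allele (orange, right bar), pooled over both replicates, against the distance from the start of the H19 window in kb. Grey marks the 13 windows of the 10 genes. The blue bar is higher in every window shown but 1, the Kcnq1 window with 487 from 129 and 497 from Cas. Counts along most of Kcnq1 are lower than in the other member windows.

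The Igf2-H19 cluster takes up 2 of the windows. The window of H19 (142550001 to 142600000; gene 142575530 to 142578146), a maternally expressed long noncoding RNA, had 2628 interactions from 129 and 1772 from Cas, a 129 share of 59.7% (58.3 to 61.2%). Igf2 (142650768 to 142666816), a fetal growth factor gene, and Ins2 (142678656 to 142679726), an insulin gene, share the window from 142650001 to 142700000, and nothing in the table separates them. It had 3605 interactions from 129 and 2388 from Cas, a 129 share of 60.2% (58.9 to 61.4%), the largest summed count of the 13 windows. Taken as log2 ratios of 129 to Cas and centred on the median autosomal window, H19 lay at 0.12 and the Igf2 and Ins2 window at 0.14. These values are at percentiles 64.5 and 67.3 of all tested windows, inside the quartiles. The window between both, from 142600001, had 882 from 129 and 585 from Cas, a centred log2 ratio of 0.14, so the ratio hardly changed from H19 to Igf2.

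In the Kcnq1 cluster, Ascl2 (142966822 to 142969264), a transcription factor gene needed for the placenta, had 1405 interactions from 129 and 1095 from Cas in its window, a 129 share of 56.2% (54.2 to 58.2%). Cd81 (143052750 to 143067930), a tetraspanin gene, had 2193 from 129 and 1763 from Cas, a share of 55.4% (53.9 to 57.0%), the lowest of the 10 loci. Both lay slightly below the autosomal share, with centred log2 ratios of -0.09 and -0.14. Cdkn1c (143458339 to 143461059), which encodes the cyclin-dependent kinase inhibitor p57, and Slc22a18 (143473726 to 143499334), of the organic ion transporter family, share a window with 3018 interactions from 129 and 2324 from Cas, a share of 56.5% (55.2 to 57.8%). Phlda2 (143501545 to 143503145), a pleckstrin-homology domain gene that restrains placental growth, had 1436 from 129 and 985 from Cas, a share of 59.3% (57.3 to 61.3%). Its window also holds Nap1l4, a nucleosome assembly gene. The adjusted p of every one of these loci was 1 by the beta-binomial test.

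Kcnq1 (143106877 to 143427050), which encodes a voltage-gated potassium channel subunit, crosses 7 windows, and Kcnq1ot1 (143213111 to 143296547) lies inside it and covers 2 of them. Over the whole of Kcnq1 there were 5284 interactions from 129 and 3759 from Cas, a 129 share of 58.4% (57.4 to 59.5%), and over the windows of Kcnq1ot1 the share was 60.7% (58.3 to 63.0%). The 2 transcripts cannot be separated in those windows. The window with the start of Kcnq1 had 1755 from 129 and 1210 from Cas. Counts were lower along the gene body, between 604 and 1399 in sum in the other 6 windows, against 2421 to 5993 in the 6 member windows outside Kcnq1. The 7 windows between the members ran from 788 to 5222. Among all windows the Kcnq1 body lay at percentiles 32.2 to 61.6 of summed count and the 6 windows outside Kcnq1 at 72.8 to 92.2.

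Inside Kcnq1, the 129 share differed most between neighbouring windows beside the start of Kcnq1ot1. The window with that start (143250001 to 143300000) had 641 interactions from 129 and 434 from Cas, a share of 59.6% (56.6 to 62.6%), and the next window upstream of the antisense start (143300001 to 143350000) had 487 from 129 and 497 from Cas, a share of 49.5% (46.3 to 52.7%). This was the lowest 129 share in the whole interval, with a centred log2 ratio of -0.48 at percentile 7.17 of all tested windows. The first window of Kcnq1ot1 by coordinate (143200001 to 143250000) had the highest share of the interval, 62.6% (58.6 to 66.5%), from 378 from 129 and 226 from Cas. The next 2 windows had shares of 58.9% (143350001 to 143400000) and 61.7% (143400001 to 143450000). The low share was thus that of 1 window, with a step on either side of it. Larger steps lay in the flank on the H19 side, with shares of 60.0, 74.6 and 60.9% in the windows at 142150001, 142200001 and 142250001. The low window of Kcnq1 did not pass the beta-binomial test (unadjusted p = 0.225, adjusted p = 1).

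**Figure D2:**
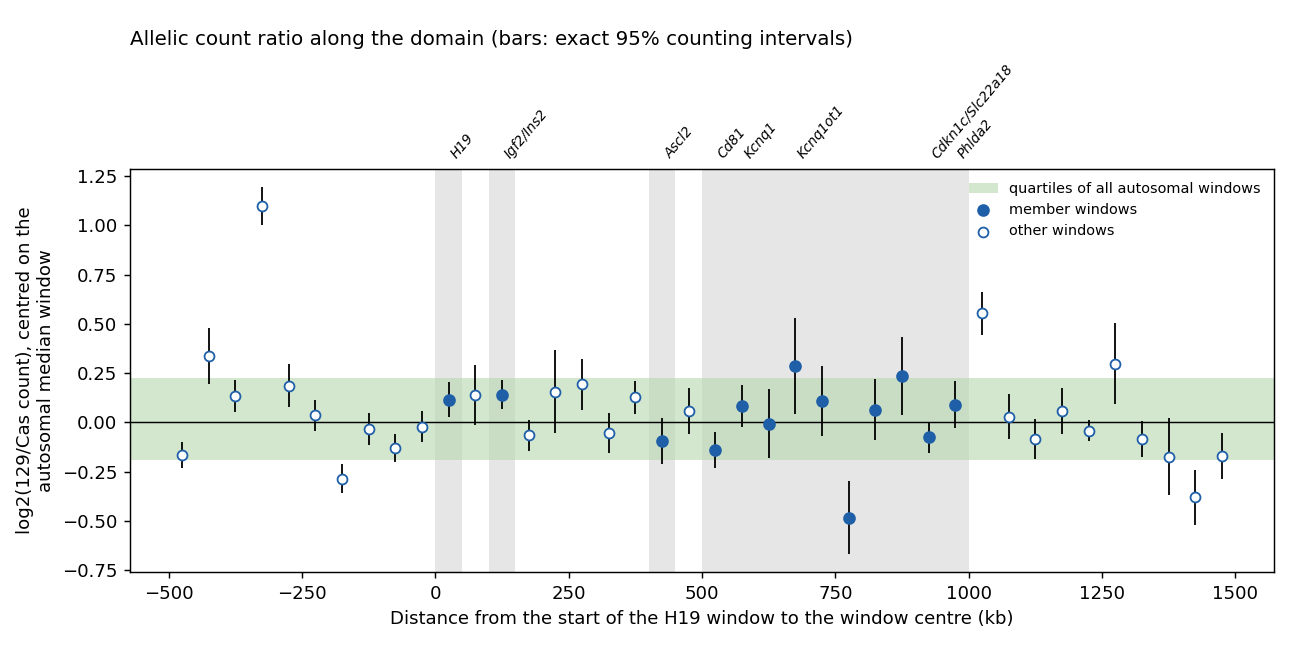
Centred log2 ratio of 129 to Cas counts in each window (y axis) against the distance from the start of the H19 window in kb, with exact 95% counting intervals as bars. Filled points are the member windows, open points the other windows and the green band the quartiles of all autosomal windows (-0.19 to 0.22). Of the 13 member windows, 10 lie inside the band; the exceptions are 0.29 and 0.23 in Kcnq1 on the side of 129 and -0.48 in Kcnq1 on the side of Cas.

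With the exact binomial test, which counts sampling error alone, 6 of the 13 windows were called, 4 above the autosomal 129 share (H19, Igf2 and Ins2, and 2 in Kcnq1) and 2 below it (Cd81 and the low window of Kcnq1). Being below that share does not mean more interactions from Cas: Cd81 still had more from 129. That test called 51.4% of all windows, 27.1% above the autosomal share and 24.3% below it, so 6 of 13 is near the background. For gene loci, each the sum of the windows its span overlaps, the beta-binomial test called 0 of the 10 genes, against 1.56% of 41737 loci (1.15% above the autosomal share and 0.405% below it), and its smallest unadjusted p over the 10 was 0.618. The binomial test called 5 of the 10 loci, against 62.5% of all loci (28.7% above the autosomal share and 33.9% below it), with H19, Igf2, Ins2 and Kcnq1ot1 above that share and Cd81 below it.

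The 10 loci were ordered by their 129 share from Kcnq1ot1 at 60.7% through Igf2 and Ins2 (60.2%), H19 (59.7%), Phlda2 (59.3%), Kcnq1 (58.4%), Cdkn1c and Slc22a18 (56.5%) and Ascl2 (56.2%) to Cd81 at 55.4%. Each locus had a counting interval that overlapped that of the next in the order. The whole span of 5.26 percentage points was below the standard deviation of 5.91 percentage points between gene loci of the genome. That value rests on 1 overdispersion over all loci (0.0143). Fitted only to the quartile of loci with the largest counts, the overdispersion was 0.0067, so the spread is smaller there. The span was not set against that smaller spread. The 3 paternally expressed genes held the top places, with centred log2 ratios of 0.14 to 0.17, while the 7 maternally expressed genes ran from -0.14 to 0.12 and 3 of them were above 0. With only the window of the gene start counted, Kcnq1ot1 had a ratio of 0.11 and came below H19 at 0.12, so this order depends on how the locus is drawn. Igf2 and Ins2 are a single window and Kcnq1ot1 lies within Kcnq1, so these are not separate observations, and the difference between both sets was not tested. The median of the 10 loci was 0.06, against -0.03 over all gene loci tested.

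**Figure D3:**
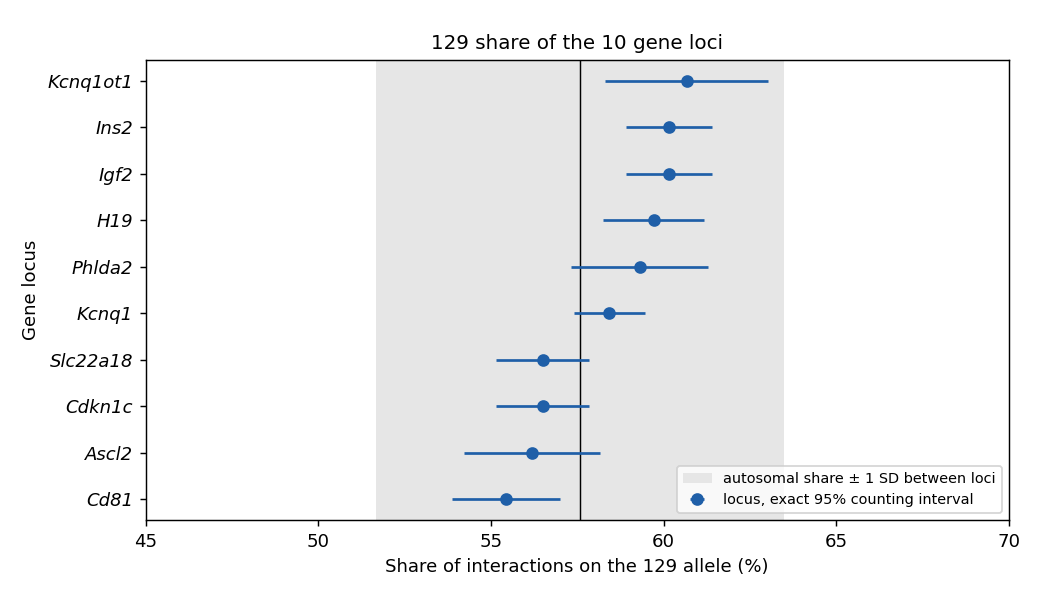
Share of interactions on the 129 allele (x axis, in percent) for the 10 gene loci, with exact 95% counting intervals. The line marks the autosomal share of 57.6% and the grey band 1 standard deviation between gene loci (5.91 percentage points). All 10 points lie inside the band, from 55.4% at Cd81 to 60.7% at Kcnq1ot1.

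The other measure of the table, the interaction distance, was followed in the same windows; with 1 value per allele and window it allows no test. The member windows had a median distance of 181 kb for 129 and 162 kb for Cas. In 6 of them 129 had the longer reach and in 7 Cas did, and the log2 distance ratio (129 over Cas) had a median of -0.01, against 0 over all windows. Without the 7 Kcnq1 windows this median was -0.21. In the H19 window the distance was 136 kb for 129 and 136.5 kb for Cas, and in the Igf2 and Ins2 window 181 kb for 129 and 158 kb for Cas. Both ratios lay inside the quartiles of all windows (-0.31 and 0.30 on the log2 scale).

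From Igf2 towards Th, all 5 windows had the longer distance on 129. The ratio was largest in the windows at 142800001, with 284.5 kb for 129 and 171 kb for Cas, and 142850001, which holds Th, the tyrosine hydroxylase gene, with 353 kb for 129 and 247 kb for Cas. The next 3 windows turned the other way. The distance was 42 kb for 129 and 49 kb for Cas at 142900001, 77 kb for 129 and 106 kb for Cas at Ascl2, and 82 kb for 129 and 125 kb for Cas at Tspan32, a tetraspanin gene. The runs of like direction were seen by eye, and neighbouring windows may share interactions, so they are not independent.

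The Phlda2 window had the distance ratio farthest from 0 among the member windows, with 68 kb for 129 and 162 kb for Cas, a log2 ratio of -1.25. Among the 39867 windows where both alleles had at least 100 interactions, 2125 had a ratio at least this far towards Cas, which puts it at percentile 5.33. The adjoining window of Cdkn1c and Slc22a18 was longer on Cas too, with 109.5 kb for 129 and 146.5 kb for Cas, as was that of Cars, the cysteinyl-tRNA synthetase gene, on the other side, with 43 kb for 129 and 59.5 kb for Cas. At Cd81 the distance was longer on 129, with 128 kb for 129 and 105 kb for Cas. In these 39867 windows the quartiles of the log2 distance ratio were -0.29 and 0.27.

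The body of Kcnq1 held the longest distances of the interval on both alleles. After its first window (162 kb for 129 and 137 kb for Cas), the 6 other windows ran from 347 to 637.5 kb on 129 and from 342 to 628 kb on Cas, with no constant order of the alleles: 3 were longer on 129 and 3 on Cas. The window from 143300001, where the 129 share was lowest, had 637.5 kb for 129 and 483 kb for Cas, while the Kcnq1ot1 start window had 526 kb for 129 and 628 kb for Cas. The windows of the Kcnq1 body had the fewest interactions and the longest distances of the 13 member windows. Among all windows they were not extreme, at percentiles 48.8 to 60.3 of mean distance and 32.2 to 61.6 of summed count. The 6 member windows outside Kcnq1 had shorter distances (percentiles 16.8 to 31.8) and larger counts (72.8 to 92.2) than most windows. Over the 13 member windows the summed count and the mean distance of both alleles had a Pearson r of -0.77 and a Spearman rho of -0.65. The 6 member windows outside Kcnq1 did not follow this. Among them the largest count (5993, Igf2 and Ins2) came with 181 kb for 129 and 158 kb for Cas. The smallest (2421, Phlda2) came with 68 kb for 129 and 162 kb for Cas. Over all 43555 windows with a distance on both alleles, r was -0.33 and rho -0.80. Count and distance of a window come from the same interactions and depend on the same baits, and which windows hold a bait was not analysed here.

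**Figure D4:**
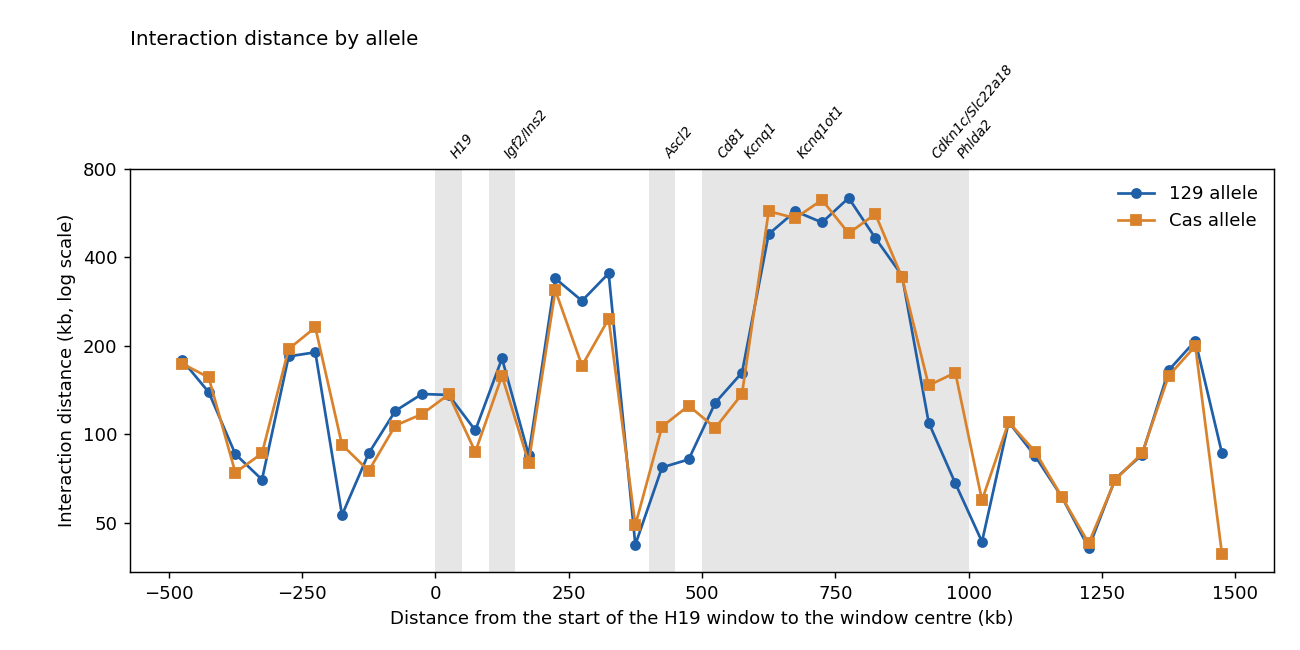
Interaction distance per window in kb (log scale) on the 129 allele (blue circles) and the Cas allele (orange squares), against the distance from the start of the H19 window in kb. Grey marks the member windows. Both alleles mostly follow each other, with the longest distances inside Kcnq1 (up to 637.5 kb for 129 and 628 kb for Cas). There are gaps beside Th, at Ascl2 and Tspan32 and at Phlda2 (68 kb on 129, 162 kb on Cas). Gaps also lie in the flanks, at Ctsd (53 kb on 129, 92 kb on Cas) and Shank2 (86 kb on 129, 39 kb on Cas).

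The genes around the members were read from a list of 19. By the beta-binomial test, 0 of the 19 loci were called (smallest adjusted p of 1), against 1.56% of all loci tested. By the binomial test 7 were called, 2 above the autosomal 129 share and 5 below it, a smaller part of the list than the 62.5% called of all loci. The 5 below that share also had more interactions from 129 than from Cas. The centred log2 ratios of the 19 loci had a median of -0.03 and ran from -0.28 at Ctsd, the cathepsin D gene, to 0.31 at Cars. Tssc4 and Trpm5, a taste-cell ion channel gene, share the window of Cd81 and so have its values. Tnnt3 covers the window of Lsp1, and other genes of the list share windows too, so the 19 loci are not separate observations. Th had 1822 interactions from 129 and 1383 from Cas, a 129 share of 56.8% (55.1 to 58.6%).

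Towards 129, the largest count ratios in the flanks of 500 kb were above the largest of the member windows, while the lowest ratio was that in Kcnq1. On the H19 side, a window of the keratin-associated genes Krtap5-3 and Krtap5-5 (142200001 to 142250000) had 3507 interactions from 129 and 1197 from Cas, a 129 share of 74.6% (73.3 to 75.8%) and a centred log2 ratio of 1.10 at percentile 98.1. Its adjusted p by the beta-binomial test was 0.268 (unadjusted p = 0.00510), so it did not pass either. The Krtap5 genes are a family of similar copies, and the sources used here do not say how reads were shared among copies. Beside Phlda2, the window of Cars (143550001 to 143600000) had 2097 from 129 and 1043 from Cas, a share of 66.8% (65.1 to 68.4%). Below the autosomal share, a window of Shank2 (143950001 to 144000000), a synaptic scaffold gene, had 847 from 129 and 805 from Cas, a share of 51.3% (48.8 to 53.7%), and the window of Ctsd had 3185 from 129 and 2834 from Cas, a share of 52.9% (51.6 to 54.2%). The remaining windows of the rule were one of Acte1 (143900001 to 143950000), with 475 from 129 and 391 from Cas, and one that holds only gene models known by number (142100001 to 142150000), with 1093 from 129 and 632 from Cas. The widest distance ratios of the flanks were at Shank2 (144000001 to 144050000), with 86 kb for 129 and 39 kb for Cas, and in the window of Ctsd, with 53 kb for 129 and 92 kb for Cas. Over both flanks the 129 share was 58.3% (57.9 to 58.6%), against 58.1% in the member windows and 58.6% in the windows between them. This flank share includes the Krtap5 window and was not computed without it. The median centred log2 ratio was -0.03 over the flank windows, against 0.08 in the member windows and 0.13 in those between. In the flanks 9 windows lay above 0 and 11 below it, against 8 and 5 of the member windows.

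The same measures were read in the windows of genes of 2 other imprinted domains of the table. The windows of Dlk1, Meg3, Rtl1, Rian, Mirg and Dio3 on chromosome 12 (7 windows) had a 129 share of 60.0%, and those of Ube3a, Snrpn, Ndn, Magel2 and Mkrn3 on chromosome 7 (17 windows) had 60.9%, against 58.1% for the Igf2-H19 and Kcnq1 windows. The median centred log2 ratios were 0.11 and 0.24 in these domains, against 0.08 here. The beta-binomial test called 0 windows in each of the 3 sets. The median log2 distance ratio was 0.23 in the Dlk1 to Dio3 windows and 0.17 in the Ube3a to Mkrn3 windows, against -0.01 here. The distance was longer on 129 in 6 of the 7 windows on chromosome 12 and on Cas in 1. In the 17 other windows it was longer on 129 in 12, on Cas in 4 and equal in 1, against 6 and 7 of the 13 windows here. Differences between the domains were not tested.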

How the data were processed

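Promoter Capture Hi-C of F121-6 ES cells was analysed from 1 deposited table, which holds whole-number interaction counts per allele in 50 kb windows on 19 autosomes, not normalised by the authors, and a distance per allele, taken to be in bp. All distances are multiples of 500 bp; the sources used here do not say how the distances of a window were averaged. Bowtie2 and mm10 are named by the submitters' processing notes; the sources used here do not give allele assignment, filters or how both replicates were merged. Both samples list the same columns, so each column was taken as pooled.

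Counts summed to 50842396 on 129 and 37470557 on Cas. Window starts were raised by 1. Ratios are log2((129 + 1)/(Cas + 1)) minus the autosomal median of 0.45. Windows and gene loci whose summed count reached 10 entered a two-sided test (double the smaller tail) under a beta-binomial model of 1 overdispersion per kind of unit (0.0165 for windows, 0.0143 for loci), with Benjamini-Hochberg adjustment over all units. The exact binomial test, other overdispersions, nulls, minimums, centres and pseudocounts were alternatives. Genes were placed by RefSeq spans on GRCm38.p6; Kcnq1 was taken as transcribed opposite to Kcnq1ot1. The beta-binomial test of windows was tried on counts simulated from the same model with 1 overdispersion. The test of loci and the exact binomial test were not simulated. All 10 members are named; in the flanks and between members the rule picked, per direction, the 3 windows of largest count or distance ratio at 100 or more interactions (per allele for distances). The members and lists were chosen with earlier results of these data known. Software: scipy 1.17.1, numpy 2.4.6, matplotlib 3.10.9 and pandas 2.3.3 under Python 3.11.15.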

Additional observations from a re-analysis of the deposited data

How the results depend on the processing

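No member window or member gene locus was called by the beta-binomial test under the other settings of that test (overdispersion by quartile of summed count, the chromosome 7 share as null, a summed count minimum of 100, a threshold of 0.01 and, for loci, the gene start window only). With an overdispersion fitted without extreme windows, an alternative chosen after seeing the data and run for windows only, no member window was called. The exact binomial test called 6 member windows, 5 member loci and 22494 windows in all. The count over all windows was 413, with 248 at a threshold of 0.01 and 706 without extreme windows in the fit. Without the Kcnq1 windows the median centred log2 ratio of the members was 0.0068, against 0.083 with them, and the median log2 distance ratio was -0.21, against -0.01; over 6 windows these medians rest on few values. All 30 alternative values of the 10 locus ratios kept their sign and stayed within the counting interval of the locus. Many of them could hardly move. For all loci but Kcnq1 and Kcnq1ot1 the gene start window is the only window, so that value is the main one again. Centring on chromosome 7 moved the centre by -0.0023 for every locus alike. No paired analysis was possible because the table holds 1 pooled column per allele and no column of a single replicate; for the same reason no replicate could be left out. Windows of 50 kb cannot separate genes that share one.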
